A study of Drosophila melanogaster with 2 samples.

Results

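The regions described here lie just below the peak threshold of a ChIP-seq experiment on the Drosophila melanogaster protein CG4707. They were chosen by their measured signal: the pooled regions were ranked by the peak caller's signal, and regions at ranks 3471 to 6000 were kept where they overlapped no peak by 1 bp or more. Of 30000 pooled regions, 2530 stood at those ranks, 94 of them overlapped a peak and 2436 remained, called sub-threshold regions below. They are set against the 3470 peaks that passed the authors' reproducibility threshold, and against 23639 lower regions at ranks 6001 to 30000 that overlap no peak.

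The experiment used a transgenic fly line that stably expresses CG4707 with GFP at its C terminus. Whole embryos of mixed sex were collected at 0 to 14 h, in 1 group of 2 biological replicates, numbered 2 and 3, with no second condition. All cell types of the embryo and all stages of the collection are thus mixed in each library. A free-text label calls both libraries an input control, while the title, assay and antibody fields describe immunoprecipitated libraries with a separate control, and they were read in the latter way. Only region lists were used, so depth is unknown and every interval below covers counting error only.

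ChIP-seq recovers DNA fragments bound by a protein directly or through other proteins, and a region list ranks the places where fragments pile up. A reproducibility threshold is set by how alike the ranks of regions are in both replicates. Here the weakest peak had a signal of 117.998, that of rank 3470, so the peaks were the regions of highest pooled signal. Regions beyond the threshold were weaker in that signal. Single peaks were not held to alike ranks: these differed over 2 times in 21.5% of peaks listed in both replicates. Weak binding, binding in few of the mixed cells and background cannot be told apart in a region list. Core promoters are the stretches of DNA around transcription start sites (TSSs) where RNA polymerase assembles, and many transcription factors bind there or at enhancers in introns and between genes. All coordinates are on dm6.

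The sequence compared most closely is the 8-mer CACTGTGC (GCACAGTG on the other strand). Earlier work on these lists found it in peaks on arms other than 3L, 3R and 4, and it holds the 6-mer ACAGTG on its other strand. The 8 sub-threshold regions below are those in which the 8-mer lay nearest to the summit, and 2 high peaks, ranks 9 and 27, are shown for comparison. Each line gives 60 bases of the Release 6 genome (RefSeq) read 5′ to 3′ on the strand that carries the 8-mer, which is in capitals.
Ubx intron, sub-threshold (chr3R:16718498-16718557, minus strand): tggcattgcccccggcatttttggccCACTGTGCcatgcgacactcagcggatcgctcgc
CG42238 intron, sub-threshold (chr2L:21020108-21020167, minus strand): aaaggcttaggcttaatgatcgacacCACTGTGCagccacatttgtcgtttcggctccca
east promoter, sub-threshold (chrX:2012998-2013057, plus strand): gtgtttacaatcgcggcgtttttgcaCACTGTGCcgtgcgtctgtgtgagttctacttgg
CG31191 promoter, sub-threshold (chr3R:20945576-20945635, minus strand): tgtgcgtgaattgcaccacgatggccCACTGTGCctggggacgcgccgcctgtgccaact
Gug intron, sub-threshold (chr3L:8459959-8460018, minus strand): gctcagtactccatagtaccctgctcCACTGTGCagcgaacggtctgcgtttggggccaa
lncRNA:CR43704 promoter, sub-threshold (chr2L:3770266-3770325, plus strand): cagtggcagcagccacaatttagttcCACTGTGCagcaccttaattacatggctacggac
scrib intron, sub-threshold (chr3R:26547736-26547795, minus strand): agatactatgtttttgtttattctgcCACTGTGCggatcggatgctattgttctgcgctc
kek5 intron, sub-threshold (chrX:19375620-19375679, minus strand): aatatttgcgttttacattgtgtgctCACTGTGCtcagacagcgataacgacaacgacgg
CG42327 promoter, peak (chr3R:11656044-11656103, plus strand): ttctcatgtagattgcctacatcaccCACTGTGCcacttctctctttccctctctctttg
mib1 promoter, peak (chr3L:16011867-16011926, minus strand): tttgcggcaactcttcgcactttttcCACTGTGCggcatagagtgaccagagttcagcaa

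In these sub-threshold regions the 8-mer centre lay 1 to 5 bp from the summit, so the match is at the point of highest signal in each. The Ubx region had rank 3657 in the pooled list, 4156 in replicate 2 and 3849 in replicate 3. It lies in an intron of Ubx, a Hox gene, with the nearest annotated TSS 1600 bp away, that of the antisense RNA asRNA:PS4. The Gug region, in an intron of the gene of the corepressor Atrophin, had rank 5430 in replicate 2 and 8947 in replicate 3. The scrib region, in an intron of a cell polarity gene, had rank 5054 in replicate 2 and 2530 in replicate 3. At the east promoter the summit lay 92 bp upstream of the TSS, with ranks 9225 and 7711. Of the 8 regions, that in scrib alone stood among the top 3470 of a replicate, by a replicate 3 region with its summit 108 bp from the pooled one.

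The threshold is a cut in the ranking by signal, and the signal passed through it without a step. The last 3 peaks had signals of 118.025, 118.006 and 117.998, and the first 3 sub-threshold regions had 117.985, 117.972 and 117.92. At the lower bound, rank 6000 had a signal of 81.73 and rank 6001 one of 81.72. The signals of the sub-threshold regions ran from 81.7 to 118 with a median of 96.0, against a median of 182 in peaks and 38.3 in lower regions. The −log10 of the authors' q-value ran from 2.53 to 3.88, and 274 sub-threshold regions had the same value as all 3470 peaks. These values chose the regions and are a description. Nearly all sub-threshold regions (99.2%) had the caller's width of 380 bp, as did 54.8% of peaks. Every arm held sub-threshold regions: 473 fell on 2L, 468 on arm 2R, 526 on arm 3L, 557 on arm 3R, 397 on the X and 15 on chromosome 4, which gives 11.1 to 20.1 per Mb.

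Promoters made up a share of the sub-threshold regions close to that in peaks and well above that in lower regions. The summit lay within 500 bp of a TSS in 1041 of 2436 sub-threshold regions (42.7%, exact Clopper-Pearson 95% interval 40.8 to 44.7). The share was 45.2% in peaks, an odds ratio of 0.904 (interval 0.813 to 1.01, exact p = 0.0589). The difference from peaks thus missed the threshold of 0.05, and it passed on the replicate 3 list alone (odds ratio 0.876, exact p = 0.0139) and with a 1000 bp window (0.896, p = 0.0407). In lower regions the share was 24.8% (odds ratio 2.27, interval 2.08 to 2.47, exact p = 8.96e-75). Against lower regions up to rank 12000 the odds ratio was 1.37. Each exact p here is two-sided, from Fisher's test, and adjusted values follow Benjamini and Hochberg within the 6 genomic classes or the 11 motifs. All regions come from the same 2 libraries. The p-values treat regions as independent draws, although some overlap each other, and do not measure the spread between embryo collections.

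Where the promoter summits lay differed from peaks. Of 1041 promoter summits 589 were upstream of the TSS (56.6%, interval 53.5 to 59.6), against 69.5% in peaks (odds ratio 0.573, interval 0.485 to 0.676, exact p = 2.25e-11). This difference kept its direction and its call under every alternative run for it, with odds ratios of 0.462 to 0.752. In lower regions 54.7% were upstream (odds ratio 1.08, interval 0.943 to 1.24, exact p = 0.265), and the difference was called on the list of replicate 3 alone (1.25, exact p = 0.00125) and of replicate 2 alone (1.15, exact p = 0.0338). Against lower regions up to rank 12000 the direction turned (0.916, exact p = 0.264). The median promoter summit lay 15 bp upstream of the TSS in sub-threshold regions (-15 bp), at -73 bp in peaks and at -15 bp in lower regions.

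Sub-threshold promoter summits were packed around the TSS. Within 100 bp lay 634 of 1041 (60.9%, interval 57.9 to 63.9), against 45.3% in peaks (interval 42.8 to 47.8) and 45.3% in lower regions (44.0 to 46.6). Within 50 bp the shares were 40.6%, 26.6% and 28.7%. This measure was chosen after its values were seen and was not tested. By rank, the share within 100 bp rose through the peaks from 33.3% at ranks 1 to 500 to 54.8% at ranks 3001 to 3470. It was 62.8% at each of ranks 3471 to 4000, 4001 to 4500 and 4501 to 5000, then 58.7% and 56.8% in the next 2 spans. At ranks 6001 to 8000 it was still 56.7% (interval 53.1 to 60.3), with no drop at the lower bound, and it was 36.5% at ranks 28001 to 30000. The highest point of this profile therefore lay among the sub-threshold regions, though their intervals overlap those of the spans next to them.

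**Figure D1:**
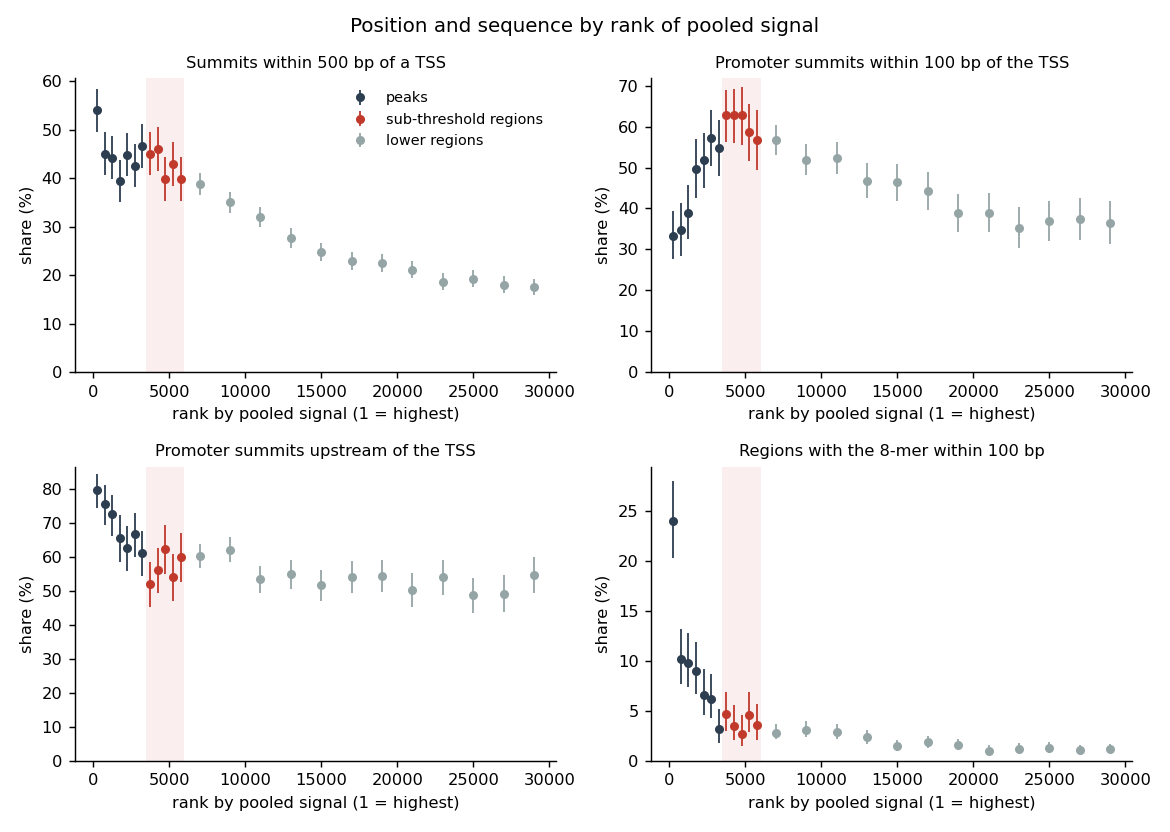
Shares of pooled regions by rank, with exact 95% intervals as bars: promoter summits, promoter summits within 100 bp of or upstream of the TSS, and regions with the 8-mer. The shaded span holds the sub-threshold regions (red), where the share within 100 bp of the TSS was 62.8% at ranks 3471 to 4000 and the 8-mer share 4.68%.

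**Figure D2:**
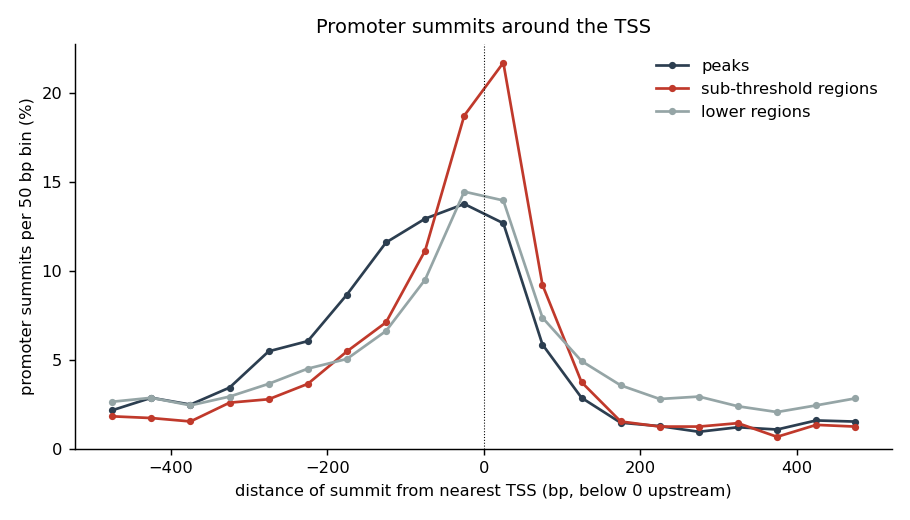
Position of promoter summits around the nearest TSS, as the percent of promoter summits of each group per 50 bp bin. In sub-threshold regions the 50 bp just downstream of the TSS held 21.7% of promoter summits, against 12.7% in peaks and 14.0% in lower regions.

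Promoters shared by divergent genes were more frequent than in lower regions, while the difference from peaks missed the threshold. A pair of protein-coding TSSs on opposite strands, at most 500 bp apart and both within 500 bp of the summit, was found at 205 of 1041 promoter summits (19.7%). The share was 19.9% in peaks (odds ratio 0.988, interval 0.807 to 1.21, exact p = 0.92), and with a promoter window of 250 bp the difference from peaks was called (0.778, exact p = 0.0476). In lower regions it was 12.3% (odds ratio 1.74, interval 1.46 to 2.08, exact p = 7.93e-10), and the call was lost against lower regions up to rank 12000 (1.20, p = 0.0593). The best-ranked such promoter among the named regions is that of mrva and CG42307, with the summit 9 bp downstream of the mrva TSS and 299 bp upstream of that of CG42307.

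The promoters of best pooled rank belong to genes of many kinds. The Kdm2 promoter, of a histone demethylase gene, had rank 3473, with signals of 71.0 in replicate 2 (rank 2712) and 53.9 in replicate 3 (rank 4404). The promoter of Ptp99A, a receptor tyrosine phosphatase, had signals of 54.5 (rank 4186) and 64.1 (rank 3298). The promoter of gro, which encodes the corepressor Groucho, had signals of 57.3 (rank 3864) and 54.8 (rank 4277), with the summit 36 bp upstream of the TSS. These 3 were close in both replicates. The promoter of RpS29, a ribosomal protein gene, was not: its signals were 79.4 (rank 2260) and 35.0 (rank 9098), with the summit 21 bp downstream of the TSS. The region also lies within 500 bp of snoRNA:Psi18S-1275. Eato, an ABC transporter gene, and CG16890 share a region with signals of 44.0 (rank 5859) and 93.2 (rank 1792). The other best-ranked promoters were those of snRNA:U2:34ABb (a U2 snRNA), Sur-8 (a scaffold of Ras signalling), Bhmt, CG3308 and jing (a zinc finger factor), at pooled ranks 3485 to 3494. The TSS lay within 50 bp of the summit at Bhmt, CG3308 and jing, and 131 bp and 186 bp away at Sur-8 and the U2 gene.

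Outside promoters, 940 sub-threshold summits lay in introns, 358 in intergenic sequence, 36 in 3′ UTRs, 26 in 5′ UTRs, 24 in non-coding exons and 11 in coding exons. Over these 1395 regions the share in introns was 67.4% against 69.5% in peaks, and none of 6 classes passed the test against peaks (lowest Fisher adjusted p = 0.63, with no unadjusted p below 0.05). Coding exons held 0.789% of these sub-threshold summits and 4.27% of those of lower regions (odds ratio 0.178, Fisher adjusted p = 3.4e-13). Introns held 67.4% and 60.6% (odds ratio 1.34, Fisher adjusted p = 1.31e-06), while the intergenic shares were 25.7% and 29.1% (0.842, Fisher adjusted p = 0.0138). None of the 3 calls was made against lower regions up to rank 12000, where the odds ratios were 0.529, 1.04 and 0.949. The intergenic call was also lost on the list of replicate 2 alone (0.873, Fisher adjusted p = 0.0762) and with the worse-ranked part of the regions, ranks 4736 to 6000 (0.896, Fisher adjusted p = 0.419). Annotated transposable elements held 6 sub-threshold summits (0.246%).

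The best-ranked region of all, rank 3471, lies on chromosome 4, in an intron of the antisense RNA asRNA:CR43957 and 2037 bp upstream of a TSS of ci, which encodes the transcription factor of Hedgehog signalling. It had signals of 66.9 in replicate 2 (rank 3006) and 46.4 in replicate 3 (rank 5708). The next lies in an intron of jumu, a forkhead factor gene, 6834 bp inside it, with signals of 104.7 (rank 1403) and 40.4 (rank 7205). The summit of that replicate 2 region lay 119 bp from the pooled summit. An intronic region of sm, which encodes an hnRNP L protein, had signals of 58.5 (rank 3754) and 70.1 (rank 2874). Other intronic regions of best rank lay in CG4615 and in Tsp, the thrombospondin gene. Of the best-ranked intergenic regions, that nearest to nht had nearly equal signals of 59.1 and 59.3. That nearest to lncRNA:CR45737 had 22.8 (rank 15467) and 91.1 (rank 1872), and that 797 bp upstream of Pdk1, a kinase gene of insulin signalling, 38.7 (rank 7097) and 70.1 (rank 2877). Similar pooled ranks therefore came from equal and from very unequal replicates.

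Nearly all sub-threshold regions were listed in both replicates, most of them outside the top of either. An overlapping region was listed in both replicates for 2402 of 2436 (98.6%), against 99.5% of peaks and 50.8% of lower regions. The rank ran from 1403 to 28558 in replicate 2, with a median of 5152.5, and from 1366 to 29888 in replicate 3, with a median of 5092. The top 3470 of both replicates held 12 sub-threshold regions (0.493%), that of replicate 2 alone 388, that of replicate 3 alone 360, and 1676 (68.8%) stood in neither. When a replicate summit had to lie within 100 bp of the pooled summit, 2166 (88.9%) were listed in both, and the top of both held 2. Summits of the replicates were a median of 33 bp apart, against 20 bp in peaks and 79 bp in lower regions. Ranks differed over 2 times in 35.1% of those listed in both, against 21.5% of peaks and 29.0% of lower regions. The value for lower regions is limited by the end of the lists. Their median ranks were 15051.5 in replicate 2 and 14869.5 in replicate 3, and no rank passed 29998. The 29.0% is therefore not comparable with the other 2 shares. The pooled list holds the reads of both replicates, so a pooled rank in this span leaves few places for regions high in both, and these values are a description.

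**Figure D3:**
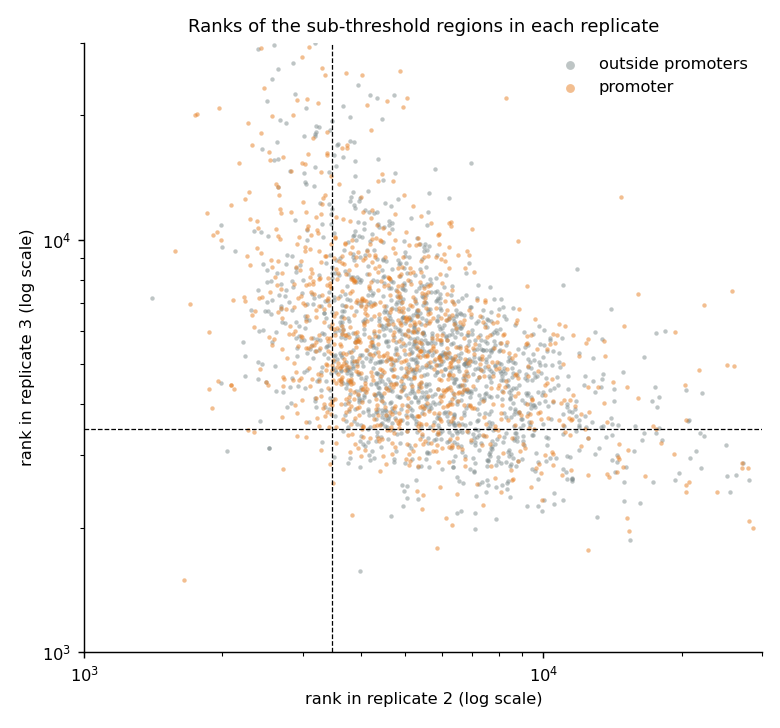
Rank of each of 2402 sub-threshold regions in replicate 2 and in replicate 3, on log scales, with promoter regions in orange. The dashed lines mark rank 3470, the number of peaks, which is not a threshold of the replicate lists. The lower left corner, the top 3470 of both replicates, holds 12 regions, of which 2 had both replicate summits within 100 bp of the pooled one.

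The 12 regions in the top of both replicates included 8 promoters (interval 34.9 to 90.1%) and no 8-mer (interval up to 26.5%). Over all sub-threshold regions the shares were 42.7% and 3.82%, both within these intervals, so 12 regions are too few to tell a difference. In 10 of them the replicate region that gives a rank had its summit over 100 bp from the pooled summit in 1 replicate, and 2, nearest to the TSSs of CG7484 (ranks 3296 and 3234) and lncRNA:CR45937 (2905 and 3336), had both within 100 bp. The promoter of Mtap, which encodes methylthioadenosine phosphorylase, had the best mean rank, with signals of 96.2 (rank 1647) in replicate 2 and 105.2 (rank 1493) in replicate 3. Its summit lay 3 bp downstream of the TSS and 287 bp upstream of that of CG6550, its pooled rank was 3733, and the summit of its replicate 3 region lay 219 bp away. Of the 12, 1 shared a replicate region with a peak. The promoters of Sugb (ranks 2711 and 2782), unc-5, a netrin receptor gene (2277 and 3461), and Taf4, a TFIID subunit gene (2338 and 3413), were also in both, with 1 replicate summit 218 bp, 164 bp and 127 bp away. The pair of regions in an intron of EDTP, nearest to the TSS of CG18467, overlap the same replicate regions (ranks 2532 and 3126) and count as 1 place. In all, 39 sub-threshold regions shared a replicate region with another of them. The promoter of Abl, a tyrosine kinase gene, had ranks 1899 and 3899, and the region 736 bp from lncRNA:CR44740 had 3983 and 1571. The replicate 2 summits of the lncRNA:CR44740 and Eato regions, 218 bp and 242 bp away, and the replicate 3 summit of the Hsc70-4 region, 133 bp away, were also over 100 bp from the pooled one.

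The replicates leaned towards different places. Of the regions in the top of replicate 2 alone, 218 of 388 were promoters (56.2%, interval 51.1 to 61.2), against 132 of 360 in the top of replicate 3 alone (36.7%, 31.7 to 41.9). Over promoters, 55.6% of 1023 sub-threshold regions ranked better in replicate 2 (interval 52.5 to 58.7), and outside promoters 44.2% of 1379 (41.6 to 46.9). The lean was also present in peaks, at 55.1% and 44.9%. On the lists of each replicate alone, the promoter share at the same ranks was 45.9% in replicate 2 and 40.5% in replicate 3. The 8-mer was found in 14 of 388 regions (3.61%) and in 13 of 360 (3.61%). These subsets were chosen on their values and were not tested.

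The 8-mer was present at a low share that lay between peaks and lower regions. It was found within 100 bp of the summit in 93 of 2436 sub-threshold regions (3.82%, interval 3.09 to 4.66), against 1.80% of lower regions (odds ratio 2.16, interval 1.70 to 2.72, exact p = 9.57e-10). Against lower regions up to rank 12000 the share was 2.92% and the odds ratio fell to 1.32 (exact p = 0.0393). It was tested against peaks on 3L, 3R and 4, the arms not used to find it. There it was found in 35 of 1098 sub-threshold regions (3.19%) and in 124 of 1556 peaks (7.97%), an odds ratio of 0.380 (interval 0.251 to 0.563, exact p = 1.84e-07). Against peaks after rank 2000 the call was lost (3.19% and 4.39%, odds ratio 0.718, exact p = 0.196). By rank, the share on all arms fell from 24% at ranks 1 to 500 to 3.19% at ranks 3001 to 3470. It was 4.68% at ranks 3471 to 4000 and 3.56% at ranks 5501 to 6000, with no drop at the threshold.

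By place, the 8-mer was found in 29 of 1041 promoters (2.79%), 37 of 940 introns (3.94%) and 24 of 358 intergenic regions (6.70%). Outside promoters 4.59% held it, against 1.93% of lower regions (odds ratio 2.44, exact p = 5.66e-09), and at promoters 2.79% against 1.40% (2.02, exact p = 0.00288). The promoter call was lost with the better-ranked part of the regions, ranks 3471 to 4735 (1.69, exact p = 0.0942), and with the variant 8-mer described below (1.32, exact p = 0.311). Against lower regions up to rank 12000 the value outside promoters was 1.26 (exact p = 0.146). Against peaks on 3L, 3R and 4, the share was 3.19% and 6.93% at promoters (odds ratio 0.443, exact p = 0.00528) and 3.18% and 8.77% outside them (0.342, p = 9.5e-06). Against peaks after rank 2000 both calls were lost, with odds ratios of 1.00 at promoters and 0.596 outside them.

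Where it occurred, the 8-mer was concentrated at the summit. In sub-threshold regions its density was 29.6 sites per 1000 regions per 100 bp within 50 bp of the summit. It fell to 9.85 at 50 to 100 bp and to 4.52 at 200 to 250 bp. Peaks had 73.8 sites within 50 bp and lower regions 11.97. The median distance of sites within 300 bp was 61 bp in sub-threshold regions, 63 bp in peaks and 109 bp in lower regions. The base before the 8-mer was C at 69 of 95 sites within 100 bp (72.6%, interval 62.5 to 81.3), against 88.0% in peaks and 63.1% in lower regions. Of the sub-threshold sites printed above, all but those of east and kek5 have this C. These profiles are a description.

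**Figure D4:**
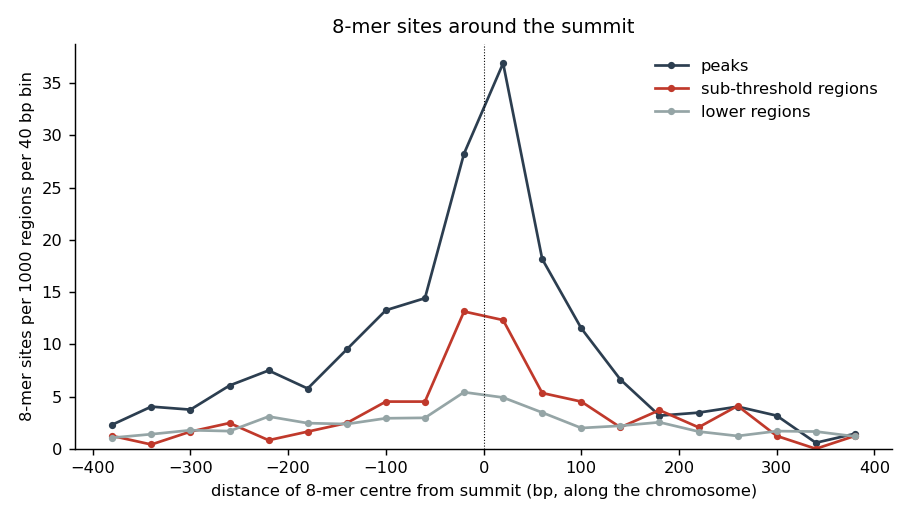
Sites of the 8-mer per 1000 regions in 40 bp bins around the summit, for sub-threshold regions, peaks and lower regions. The 40 bp on either side of the summit held 13.1 and 12.3 sites in sub-threshold regions, against 28.2 and 36.9 in peaks and 5.41 and 4.91 in lower regions.

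Related sequences gave the same order. Like the 8-mer they were listed as sequences of peaks, and they share ACAGTG with it, so they are not independent of it. The variant ACAGTGGG (CCCACTGT on the other strand), which overlaps the 8-mer in ACAGTG, was found in 3.61% of sub-threshold regions, 9.86% of peaks and 1.68% of lower regions. The 6-mer ACAGTG alone was found in 17.2%, 26.5% and 11.2%. These shares are over all arms. On 3L, 3R and 4 the variant was found in 2.46% of sub-threshold regions and 8.42% of peaks, and the 6-mer in 15.3% and 24.1%. Over all 30000 pooled regions the shares were 2.93% for the 8-mer, 2.80% for the variant and 13.5% for the 6-mer.

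Of 11 known motifs sought on either strand in the window of 100 bp on each side of the summit, 1 differed from peaks and 5 from lower regions. The TATA box letters (TATAAA, or TTTATA, in 22.8% of all pooled regions) were found in 25.7% of sub-threshold regions, 29.8% of peaks (odds ratio 0.814, Fisher adjusted p = 0.00574) and 21.4% of lower regions (1.27, Fisher adjusted p = 6.75e-06). The median GC share of these windows was 40.3% in sub-threshold regions, 38.3% in peaks and 42.3% in lower regions, and its part in this result was not tested. Motif 1 (GGTCACAC, or GTGTGACC, in 1.54% of all pooled regions), a core promoter element of housekeeping genes, was found in 3.00% against 1.30% of lower regions (odds ratio 2.34, Fisher adjusted p = 4.37e-08). The DRE (TATCGATA on both strands, in 1.56% of all pooled regions), the site of the factor Dref, was found in 2.67% against 1.36% (1.99, Fisher adjusted p = 9.53e-06). Both lie mostly at promoters: there Motif 1 was found in 5.96% of sub-threshold regions, 4.46% of peaks and 4.15% of lower regions, and the DRE in 5.76%, 4.40% and 4.23%. Outside promoters the shares in sub-threshold regions were 0.789% and 0.358%. 

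GAGA repeats (GAGAGA, or TCTCTC, in 11.2% of all pooled regions), which bind the Trl protein, were found in 13.9% of sub-threshold regions, 14.3% of peaks and 10.4% of lower regions (odds ratio against lower regions 1.39, Fisher adjusted p = 2.28e-06). At promoters the share was 14.9% in sub-threshold regions and 12.3% in lower regions, and outside them 13.1% and 9.81%. The letters of the Pho site (AAATGGC, or GCCATTT, in 4.91% of all pooled regions), of the Polycomb recruiter Pleiohomeotic, were rarer than in lower regions, at 3.69% and 5.25% (odds ratio 0.692, Fisher adjusted p = 0.00153). That call was lost on the list of replicate 2 alone (0.841, Fisher adjusted p = 0.157). None of these 5 calls against lower regions was made when only those up to rank 12000 were used. The GAGA call was also lost with the worse-ranked part of the regions (1.21, Fisher adjusted p = 0.0848), and the DRE call with a window of 50 bp (1.53, Fisher adjusted p = 0.0793). The TATA box call against peaks was lost against peaks after rank 2000 (0.826, Fisher adjusted p = 0.103), with the worse-ranked part (0.858, Fisher adjusted p = 0.364) and with a window of 200 bp (0.903, Fisher adjusted p = 0.217).

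The other 6 motifs passed against neither group. Letters of Zelda (CAGGTAG, or CTACCTG), the activator of the early embryonic genome, were found in 0.985% of sub-threshold regions, 1.04% of peaks and 1.08% of lower regions, and in 1.07% of all pooled regions. The CTCF core (AGNNGGCGC, or GCGCCNNCT, in 2.50% of all pooled regions), of an insulator protein, was found in 2.46%, 3.31% and 2.40%. The Su(Hw) core (GCATACTT, or AAGTATGC, in 1.37% of all) was found in 1.64% of sub-threshold regions, and the Grainyhead letters (AACCGGTT on both strands, in 0.323% of all) in 0.411%. The E-box (CAGCTG on both strands, in 10.05% of all) was found in 10.2%, and the initiator letters (TCAGTT, or AACTGA, in 13.6% of all) in 14.2%.

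Sub-threshold regions lay nearer to peaks than lower regions did. The nearest peak summit was within 1 kb for 258 of 2436 (10.6%), against 6.79% of lower regions (odds ratio 1.63, interval 1.41 to 1.87, exact p = 5.35e-11). The call was lost against lower regions up to rank 12000 (9.25%, odds ratio 1.16, exact p = 0.0604). The median distance to a peak summit was 6477.5 bp in sub-threshold regions and 8832 bp in lower regions, the closest sub-threshold summit being 201 bp away. The 258 close regions were at promoters in 41.9% of cases and the others in 42.8%, and the 8-mer shares were 3.49% and 3.86%. Beyond peaks, 51 sub-threshold regions overlapped another of their own group.

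At gene level, 1315 of 18164 annotated genes (7.24%) started within 500 bp of a sub-threshold summit, and 1189 of them (6.55% of all genes) were near no peak. The other 126 were near both. A peak summit lay within 500 bp of a TSS of 1902 of the 18164 genes (10.5%). For 26 gene lists, chosen with earlier results of these lists known, the counts below are read against 7.24% and 6.55% and carry no test. Counts near a peak are read against 10.5%. These shares are over coding and non-coding genes together, and 1169 of the 1315 genes were protein-coding. No share over coding or non-coding genes alone is given. Genes that lie close together can be counted through 1 region.

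Cytosolic ribosomal protein genes were near a sub-threshold region in 9 of 93 cases (9.68%, interval 4.52 to 17.6), all 9 near no peak, while 67 were near a peak, so that 76 of 93 had one or the other. Among them were RpS29, RpS3, RpL5, RpL7-like, RpL15, RpL26, RpLP2 and RpL6. Of those named, all but RpL7-like had the summit within 100 bp of the TSS, at 3 bp for RpLP2 and 97 bp for RpL26. RpL7-like was counted through the region of JhI-21, 359 bp upstream of its TSS. Replicate ranks were 3086 and 4876 for RpS3 and 3587 and 13660 for RpL6, so the replicates stood much further apart at RpL6. None of the 9 held the 8-mer, but at 2.79% of all sub-threshold promoters 9 are too few to read this.

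Shares of the lists in this paragraph ran from 0 of 8 genes (CCT chaperonin) to 12% (heat shock proteins). They lay on either side of that of all genes and were not tested. Mitochondrial ribosomal protein genes were near in 7 of 73 cases (9.59%, interval 3.94 to 18.8), among them mRpL43, mRpS6 and mRpS26, and the mRpL4 region held the 8-mer. Here mRpL43 and mRpS26 were counted through regions nearest to the TSSs of CG30183 and CG13698. Oxidative phosphorylation genes were near in 8 of 86 (9.30%, 4.10 to 17.5), all near no peak, while 4 of the list were near a peak. COX7C was counted through the region of oys, while ND-51 and COX7B had the summit 113 bp and 110 bp upstream of their own TSS. ATPsynC, a subunit of ATP synthase, had rank 2026 in replicate 2 and no region in the list of replicate 3. Proteasome subunit genes were near in 4 of 48 (8.33%, 2.32 to 19.98) and 1 was near a peak. Rpn3 and Prosbeta5 had the summit within 27 bp of the TSS, while Rpn13 was counted through the region of CtsL1. Translation factor genes were near in 2 of 53 (3.77%), of which eIF3k was near no peak, spliceosome genes in 1 of 32 (Prp8), and insulator and architectural protein genes in 1 of 23 (mod(mdg4)), of which 11 were near a peak. Heat shock protein genes were near in 3 of 25, Hsp22, Hsc70-4 and Hsp110. Hsc70-4, a constitutive chaperone, had ranks 2765 and 5162, and Hsp22, a small heat shock protein, 8517 and 2764. Of the 8 CCT chaperonin genes none was near (interval up to 36.9%).

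Among developmental lists the counts were small and the intervals wide. Notch pathway genes were near in 5 of 15 cases (33.3%, interval 11.8 to 61.6), none of the 5 near a peak, with another 5 of the list near a peak. The 5 were N, the receptor, its ligand Ser, the metalloprotease kuz, the regulator dx and the DNA-binding factor Su(H). Su(H) had the summit 64 bp upstream of the TSS and ranks of 4721 and 4471. The kuz summit lay 6 bp downstream of the TSS, with ranks of 6362 and 3688. N was unequal, with ranks of 14605 in replicate 2 and 2942 in replicate 3, and Ser had 7073 and 8324. In the Enhancer of split complex, whose genes respond to Notch, 4 of 12 genes were near, and E(spl)m2-BFM, E(spl)mbeta-HLH and E(spl)malpha-BFM of these were near no peak. The region of E(spl)m2-BFM, 428 bp upstream of its TSS, held the 8-mer, with ranks of 4761 and 3941.

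Dorsal-ventral patterning genes were near in 4 of 15 cases (26.7%, interval 7.79 to 55.1), none near a peak. They were vnd, a neural homeobox gene, dpp, a BMP ligand, Tl, the receptor that sets the axis, and cact, the inhibitor below it. The vnd region had ranks of 4013 and 2993. The Tl region had 15244 and 4398, and cact 16108 and 7375, both lower in replicate 2. Cyclins and mitotic regulators were near in 7 of 33 cases (21.2%, 8.98 to 38.9), none near a peak: CycH, aurB, E2f1, twe, rux, stg and CycA. E2f1, the S phase factor, had ranks of 6214 and 4713, and stg, a Cdc25 phosphatase gene, had 12391 and 5606 with the summit 38 bp from the TSS. The summits counted for aurB and rux lay nearest to the TSSs of Stam and MCTS1. Germ plasm and small RNA genes were near in 3 of 18, nanos, gcl and stau, of which stau had its own summit 19 bp upstream of the TSS, and nanos and gcl were counted through regions nearest to CG11779 and CG14767. Ecdysone response genes were near in 4 of 18, with Hr4 and crol near no peak, Polycomb group genes in 1 of 20 (ph-d) and trithorax group genes in 2 of 18, both also near a peak. No Hox gene promoter (0 of 8, interval up to 36.9%) and no gap or pair-rule gene promoter (0 of 24, up to 14.2%) was near a sub-threshold region. Both intervals include the 7.24% of all genes. The Ubx region above is intronic.

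Shares of tRNA, snoRNA, microRNA, receptor, cuticle and P450 genes were below that of all genes, a comparison that was not tested. Of the 1315 genes behind the share of all genes 1169 were protein-coding, so it is not the share of non-coding genes. Whether the tRNA, snoRNA and microRNA lists are low among non-coding genes cannot be read from it. Nuclear tRNA genes were near in 12 of 295 cases (4.07%, interval 2.12 to 6.998), snoRNA genes in 11 of 257 (4.28%, 2.16 to 7.53), snRNA genes in 3 of 32 and microRNA genes in 6 of 260 (2.31%, 0.851 to 4.95). Several share regions: the tRNA genes Trp-CCA-2-3, Trp-CCA-2-4 and Gly-GCC-1-12 share 1 region (ranks 2970 and 5840), and 3 snoRNA genes of the Psi18S-1347 group another (5097 and 9701). The region at tRNA:Ile-AAT-1-4 had ranks of 3087 and 29301, and that at tRNA:Arg-TCT-1-1 rank 2107 in replicate 2 and no region in the replicate 3 list. The mir-34 region, 184 bp upstream of its annotated start, had 4867 and 25678. Chemosensory receptor genes were near in 0 of 185 cases (interval up to 1.97%), cuticle protein genes in 1 of 123 (Cpr73D, through the region of Ogdh) and cytochrome P450 genes in 1 of 81, which was also near a peak. CG4707 itself had its nearest sub-threshold summit 9197 bp from its TSS, while a peak of rank 350 lay 149 bp away.

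**Figure D5:**
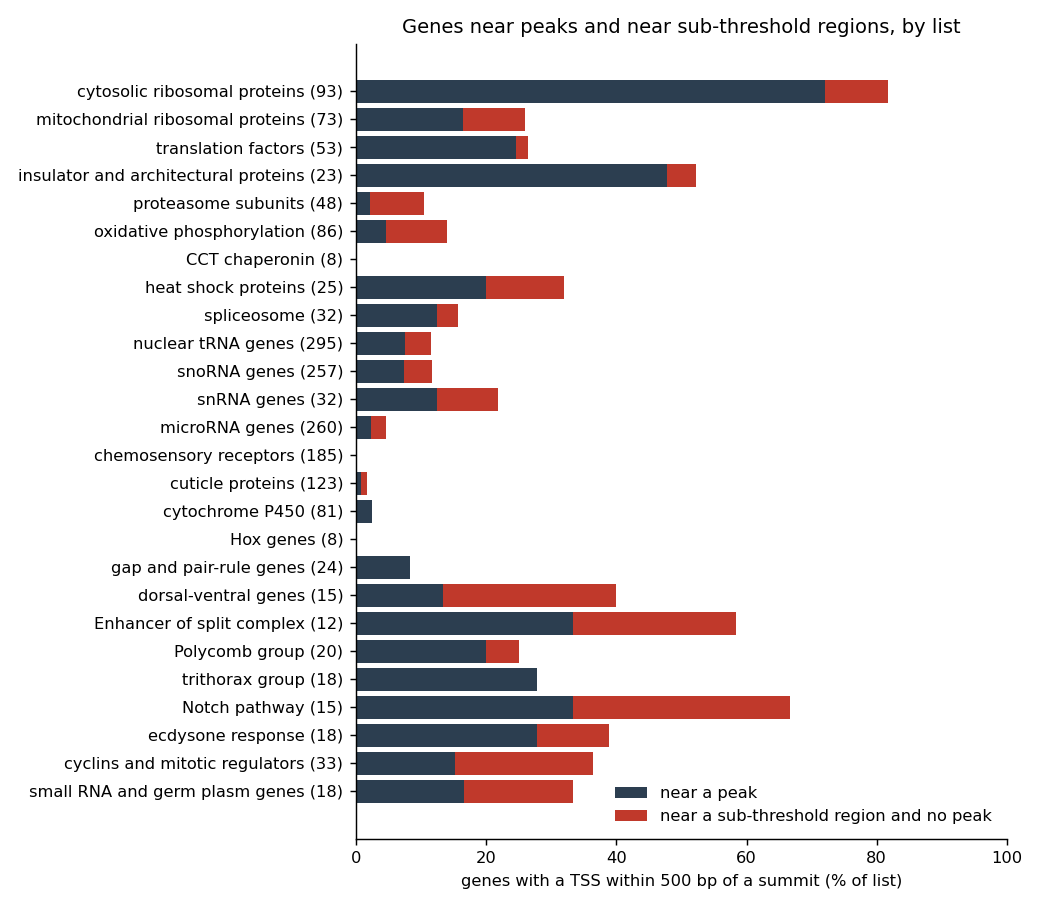
Percent of the genes of each list, with the number of genes in brackets, that had a TSS within 500 bp of a peak summit (dark) or of a sub-threshold summit and no peak (red). For cytosolic ribosomal protein genes the shares were 72.0% and 9.68%, and for the Notch pathway 33.3% each. Over all genes they were 10.5% and 6.55%.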

How the data were processed

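Binding of the tagged protein was measured by ChIP-seq in 2 replicates. The authors called regions on each replicate and on both together against a control alignment, per the deposited file listing. The labels name dm6 as the build. Aligner and peak caller: not given in the sources used here. The deposited signal of a region is in the caller's own unit, which is not described, and was used to rank regions within a list. The authors' lists also hold a −log10 q-value per region, and the distance of the summit from the region's start. Fragments of sonicated chromatin measured 200 to 800 bp, per the labels.

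Annotation was that of Ensembl release 115, with sequence of the Release 6 genome, within whose chromosome ends all regions lay. Promoter summits lay within 500 bp of any TSS, and other summits were classed, in this order, as UTR (5′ before 3′), exon (coding before non-coding), intron or intergenic. Shares were compared by two-sided Fisher's exact tests (threshold 0.05), adjusted by Benjamini-Hochberg within the 6 classes and the 11 motifs, with exact Clopper-Pearson 95% intervals. A region's replicate rank is that of the overlapping replicate region with the nearest summit. The regions, gene lists, motifs and tests were chosen with earlier results of these data known.

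Named genes are those at the 10 promoters, 5 introns and 3 intergenic regions of best pooled rank, at the 10 best mean replicate ranks, at the 8 regions with the 8-mer nearest the summit, up to 3 per list near no peak, and CG4707. Others were named after their values were seen. Alternatives were each replicate's list alone, the better and worse ranked part of the regions, another overlap rule, parts of the peaks and of the lower regions, and other windows, TSSs and sequences. With a replicate's list alone, its top 3470 regions replaced the peaks, and the other groups were taken by its own ranks. The shares, overlaps and scans were tested on simulated data. Tests and intervals came from scipy 1.17.1, tables from pandas 2.3.3 with numpy 2.4.6, and plots from matplotlib 3.10.9, under Python 3.11.15.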

Additional observations from a re-analysis of the deposited data

How the results depend on the processing

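Values here are odds ratios unless said otherwise. The promoter share against peaks (0.904) was 0.876 to 0.944 on the list of 1 replicate alone and passed the test on that of replicate 3. It also passed with the worse-ranked part of the regions (0.817) and a 1000 bp window (0.896), and reversed at 250 bp (1.04, not called). The head-to-head share against peaks, not called, reversed with the better-ranked part (1.06), against peaks after rank 2000 (1.11) and at 1000 bp (1.05), and was called at 250 bp (0.778). Against peaks after rank 2000 the 8-mer call was lost (0.718), and at promoters the value turned to 1.00. The upstream share against lower regions (1.08) was called on each replicate alone (1.15 to 1.25) and at 1000 bp (1.13), and reversed against lower regions up to rank 12000 (0.916). There the head-to-head share (1.20) and the share within 1 kb of a peak (1.16) also lost their call, and 0 of 6 classes and 0 of 11 motifs were called. The count of classes against lower regions was 2 to 5 on 1 replicate alone. The count of motifs against peaks was 1 to 2 on 1 replicate alone, 2 with the better-ranked part or a 50 bp window, and 0 with the worse-ranked part or against peaks after rank 2000. Genes near a sub-threshold region were 6.82% to 7.68% on 1 replicate alone. They were 3.88% and 3.51% for the better and worse ranked parts, 5.59% at 250 bp, 9.54% at 1000 bp and 6.26% with the most upstream TSS. The share in the top of neither replicate was 52.1% and 85.8% in these parts. Parts of the regions hold fewer regions and also differ in pooled rank. The cause of none of these changes was tested. Of 240 values, 187 kept direction and call or, where they were counts of calls or shares without a test, moved little, although a count can stay near while 1 of its calls is lost, as named beside the results. No paired analysis was possible because there is only 1 group.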
